A study of Mus musculus with 7 samples.

Results

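The genes of antigen presentation by the major histocompatibility complex (MHC) were examined in tibialis anterior (TA), the fast-twitch muscle along the front of the shin. The group holds 10 genes, chosen by symbol and not by their values, and 9 of these 10 were among the 12239 genes of the expression table. They are the class I genes *H2-K1*, *H2-D1* and *B2m*, the peptide-supply genes *Tap1*, *Tap2* and *Psmb8*, and the class II genes *Cd74*, *H2-Aa* and *H2-Ab1*. *H2-Eb1*, which encodes the other class II beta chain of the list, was not a row of the table and was not analysed here. The muscle came from male mice on the FVBN background aged 5 to 6 months by the labels, with 4 libraries from wild-type (WT) mice and 3 from C2-/- mice. In C2-/-, *Mybpc2* is disrupted by a Neo cassette flanked by LoxP sites that takes the place of most of the gene in every cell of the body. *Mybpc2* encodes fMyBP-C, the fast skeletal form of myosin-binding protein C. Neither group carried any further allele or treatment according to the labels. The comparison asks how the loss of this sarcomere protein is accompanied by changes in the transcripts of the muscle.

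Class I molecules display peptides from inside the cell to CD8 T cells. Their heavy chain, here H2-K or H2-D, reaches the surface only when bound to beta-2-microglobulin, the product of *B2m*, and to a peptide. The immunoproteasome, of which *Psmb8* encodes a catalytic subunit, cuts proteins into such peptides, and the transporter made of TAP1 and TAP2 carries them into the endoplasmic reticulum. Class II molecules display peptides taken up from outside the cell to CD4 T cells, and their alpha and beta chains (*H2-Aa* and *H2-Ab1*) assemble with the invariant chain encoded by *Cd74*. Healthy muscle fibres carry little class I and hardly any class II. Endothelial cells carry class I, and macrophages and dendritic cells between the fibres carry both. Interferon gamma raises most of these genes together.

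Of the 10 genes, 8 lie on chromosome 17, in the mouse MHC. In the GRCm38 annotation, which matches the authors' build, *H2-K1* spans 33996017 to 34000347 on the minus strand and *H2-D1* spans 35262730 to 35267499 on the plus strand. Between them lie *Tap1* (34187553 to 34197225, plus), *Psmb8* (34197721 to 34201454, plus), *Tap2* (34203527 to 34216321, plus), *H2-Ab1* (34257689 to 34269419, plus) and *H2-Aa* (34282744 to 34287823, minus). *B2m* (122147686 to 122153083, plus) is on chromosome 2. All are protein-coding, and reads over their exons were counted.

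The region before the transcription start is shown for 1 gene of each role, because interferon and the class II regulators act on these promoters. Each sequence is the 240 bases upstream of the annotated start on the strand of the gene, from the RefSeq promoter table of GRCm38.p6. They were read at chr2:122147446-122147685 (plus strand) for *B2m*, chr17:34187313-34187552 (plus) for *Tap1* and chr17:34287824-34288063 (minus) for *H2-Aa*. Capitals mark each CCAAT box, written ATTGG where it lies on the opposite strand, and each core of the interferon-stimulated response element, GAAANNGAA.
B2m: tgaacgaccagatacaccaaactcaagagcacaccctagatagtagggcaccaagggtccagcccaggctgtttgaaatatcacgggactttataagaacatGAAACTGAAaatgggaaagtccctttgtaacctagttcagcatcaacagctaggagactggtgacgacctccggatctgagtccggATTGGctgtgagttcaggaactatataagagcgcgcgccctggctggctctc
Tap1: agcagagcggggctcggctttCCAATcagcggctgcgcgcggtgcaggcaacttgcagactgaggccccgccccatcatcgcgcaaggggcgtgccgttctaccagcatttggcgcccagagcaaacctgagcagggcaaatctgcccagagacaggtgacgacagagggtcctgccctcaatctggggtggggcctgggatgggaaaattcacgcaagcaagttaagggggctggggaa
H2-Aa: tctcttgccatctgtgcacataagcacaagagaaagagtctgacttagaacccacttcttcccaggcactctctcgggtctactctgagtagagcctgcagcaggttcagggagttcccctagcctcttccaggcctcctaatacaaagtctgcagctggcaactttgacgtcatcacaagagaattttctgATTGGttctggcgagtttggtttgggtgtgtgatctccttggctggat

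*B2m* held both motifs, the response element core beginning at position -139 from the RefSeq start and a CCAAT box at -53. *Tap1* held a CCAAT box at -222 and *H2-Aa* at -48. Of the 7 genes with an entry in the promoter table, 6 held a CCAAT box and 1 the response element core, where 37.4% and 8.6% of the 32851 promoters of the genome did (250 bases before to 50 after the start, both strands). The gamma-activated site TTCNNNGAA was found in 1, *Psmb8*, and in 8.3% of all promoters. The RefSeq windows of *Psmb8* (34197945 to 34198244) and *H2-D1* (35262844 to 35263143) begin inside the gene spans given above. Their matches therefore lie within the annotated genes. *Tap2*, *Cd74* and *H2-Ab1* had no entry. A match describes the letters only.

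Values are log2 CPM, the reads of a gene per 1000000 reads of its library, with the authors' TMM scaling. A change is the C2-/- mean minus the WT mean and carries its standard error (SE) from limma. A change was past the threshold with a limma adjusted p under 0.05 over all genes and more than 1.5-fold. *Mybpc2* stood at 12.68, 12.85, 12.41 and 12.51 in WT and at 1.16, 1.67 and -0.47 in C2-/-, as the labels say. WT replicates 1 to 3 held 14929214 to 15464499 reads, WT replicate 4 held 4683853, and the C2-/- libraries held 2613277 to 4917936. WT replicate 4 was the only WT library of that depth, so its own value is given beside the result of each of the 9 genes. The changes of all genes also followed transcript GC content (Spearman's rho -0.68 across 12176 genes, which are not independent replicates). Each of the 9 is therefore also given after a correction for GC content in each library. Whether depth, GC content or genotype sets a change cannot be told apart beyond these values.

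As a group, the genes did not move in 1 direction. With the deposited values, 2 of 9 passed the threshold with a rise in C2-/- (*B2m* and *H2-Ab1*), where 20.2% of all genes were, and 2 with a fall (*Tap2* and *Psmb8*), where 25.0% were. The median change of the 9 was -0.11 against -0.14 over all genes. After the GC correction, *H2-K1*, *H2-D1*, *B2m* and *H2-Ab1* rose, 4 of 9 against 12.3% of all genes, and *Tap2* alone fell, against 8.33%. The corrected median was 0.41 against 0.02 over all genes. In the deposited values the 3 C2-/- libraries lay above all 4 WT libraries in 2 genes and below them in 2, against 22.6% and 26.7% of all genes. In the corrected values they lay above in 4 and below in 2, against 18% and 15.5%. The shares of the deposited values are near those of the whole table, and the counts are too small to set the group apart. *B2m*, *H2-Ab1* and *Tap2* were past the threshold in the same direction with both sets of values.

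**Figure D1:**
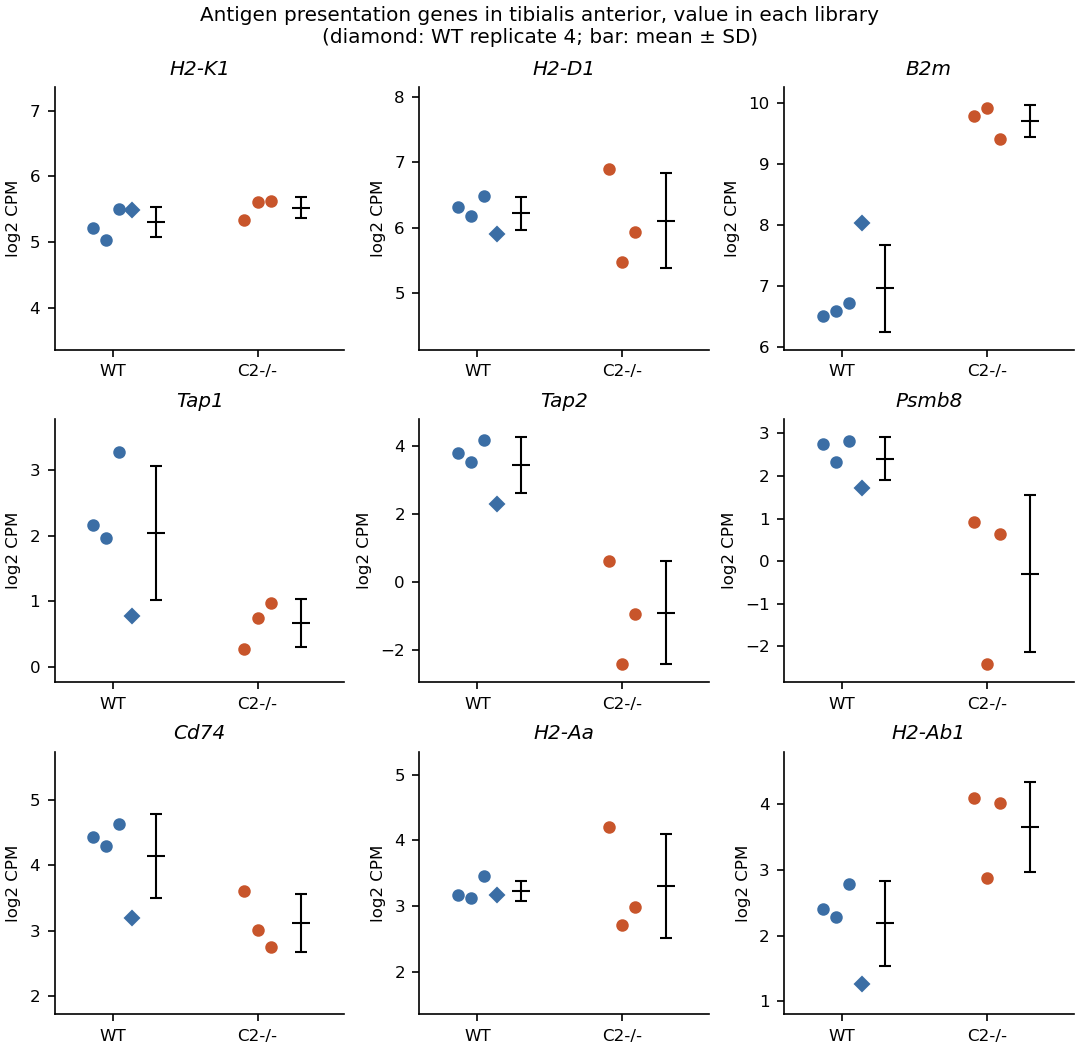
Each panel shows 1 gene, with the deposited log2 CPM on the y axis and the group on the x axis. Blue points are WT libraries (the diamond is WT replicate 4), red points are C2-/- libraries, and the black bar is the mean ± SD of 4 WT or 3 C2-/- libraries. *B2m* stood at 6.50 to 8.02 in WT and 9.40 to 9.91 in C2-/-, *Tap2* at 2.29 to 4.20 against -2.42 to 0.63, and in *H2-K1*, *H2-D1*, *H2-Aa*, *Tap1* and *Cd74* the groups overlapped.

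**Figure D2:**
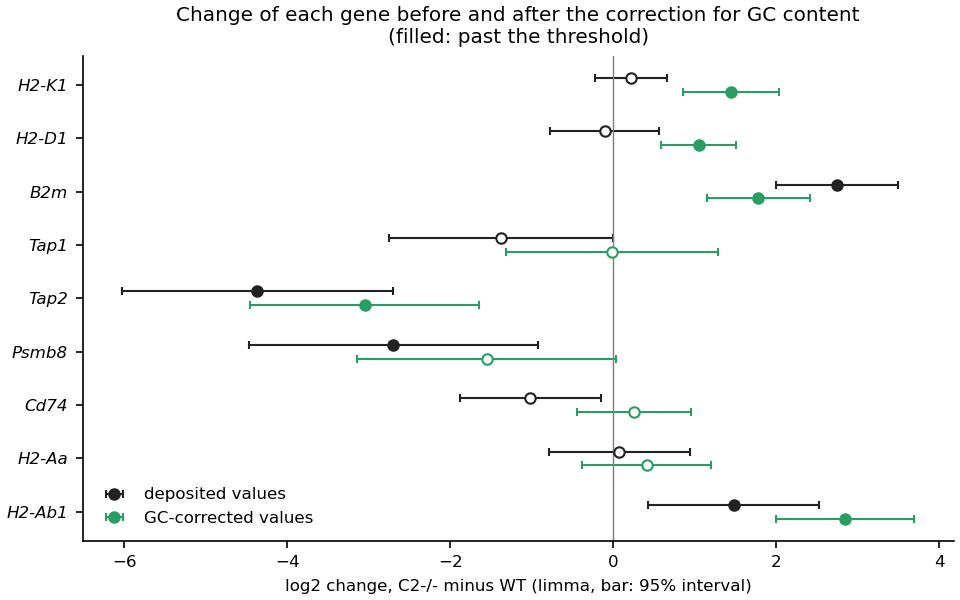
Change of each gene in log2 units, C2-/- minus WT, with its 95% interval from limma, for the deposited values (black) and after the GC correction (green). Filled points were past the threshold. *B2m* (2.74 and 1.78), *H2-Ab1* (1.48 and 2.84) and *Tap2* (-4.37 and -3.05) were past it with both.

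The light chain of class I was the most abundant of these transcripts and, in the deposited values, showed the largest rise of the 9. *B2m* was 6.50, 6.58, 6.72 and 8.02 in WT replicates 1 to 4 (6.96 ± 0.72, SD, n = 4), and 9.78, 9.91 and 9.40 in C2-/- replicates 1 to 3 (9.70 ± 0.26, SD, n = 3). Every C2-/- library was above every WT library, and WT replicate 4 stood apart from the other WT libraries on the side of C2-/-. The change was 2.74 (SE 0.34, limma adjusted p = 0.000424), or 6.69-fold. Against WT replicate 4 alone it was 1.68. After the GC correction it was 1.78 (SE 0.28, limma adjusted p = 0.00339), or 3.43-fold, and the C2-/- mean was 0.96 above WT replicate 4. *B2m* has the lowest GC content of the group, at 41.2%. No 50-base stretch of its transcripts occurs in another gene. In whole muscle, more cells of a type and more RNA per cell cannot be told apart.

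The class I heavy chains did not follow *B2m* in the deposited values. *H2-K1* was 5.21, 5.03, 5.50 and 5.48 in WT (5.30 ± 0.23, SD, n = 4) and 5.34, 5.61 and 5.62 in C2-/- (5.52 ± 0.16, SD, n = 3). The groups overlapped, and the change was 0.22 (SE 0.20, limma adjusted p = 0.378), with a 95% interval of -0.22 to 0.66. *H2-D1* was 6.32, 6.18, 6.48 and 5.90 in WT (6.22 ± 0.24, SD, n = 4) and 6.90, 5.48 and 5.94 in C2-/- (6.11 ± 0.72, SD, n = 3). C2-/- replicate 1 lay above the WT range, replicate 2 below it and replicate 3 within it, and the change was -0.11 (SE 0.30, limma adjusted p = 0.787), with a 95% interval of -0.78 to 0.57. Against WT replicate 4 the C2-/- means differed by 0.04 and 0.21.

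Both heavy chains are GC-rich (56.3% and 55.9%), and the correction lowered their WT values and raised those of C2-/-. The corrected *H2-K1* values were 4.61, 4.43, 4.82 and 5.25 in WT and 5.73, 6.61 and 6.34 in C2-/-, a change of 1.45 (SE 0.26, limma adjusted p = 0.00571). The corrected *H2-D1* values were 5.76, 5.61, 5.83 and 5.68 in WT and 7.26, 6.42 and 6.63 in C2-/-, a change of 1.05 (SE 0.21, limma adjusted p = 0.00775). In both, every corrected C2-/- value was above every WT value, WT replicate 4 included. The call of the heavy chains thus depended on the correction, and that of *B2m* did not.

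Reads of the 2 heavy chains are not fully their own. Of the 50-base stretches of the *H2-K1* transcripts 9.6% occur in another gene, and of those of *H2-D1* 12.8%, mostly in *H2-Q* genes and in each other. The handling of reads that map to several genes was not given in the sources used here, so the split of such reads is uncertain. The *H2* chains also differ between inbred strains, and FVB/N mice do not carry the haplotype of the C57BL/6J reference. How well their reads align was not tested.

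**Figure D3:**
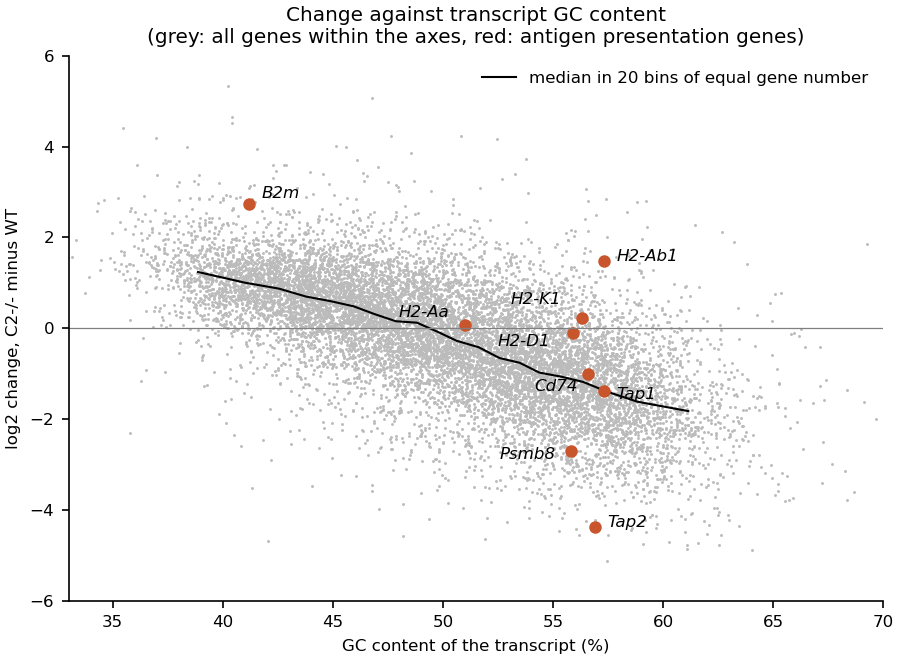
Change in log2 units, C2-/- minus WT, against the GC content of the transcript in percent. Grey points are all genes within the axes, the black line is the median in 20 bins of equal gene number, and red points are the 9 antigen presentation genes. *B2m* (41.2% GC), *H2-K1*, *H2-D1* and *H2-Ab1* (57.3% GC) lay above the line, *Tap2* and *Psmb8* below it, and *Tap1*, *Cd74* and *H2-Aa* near it.

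The genes that supply peptides to class I had few reads in C2-/-. *Tap2*, the second subunit of the peptide transporter, was 3.80, 3.53, 4.20 and 2.29 in WT (3.45 ± 0.82, SD, n = 4) and 0.63, -2.42 and -0.95 in C2-/- (-0.91 ± 1.52, SD, n = 3). These values rested on 213, 172, 281 and 21 reads in WT and on 4, 0 and 2 reads in C2-/-. Every C2-/- library was below every WT library. *Tap2* fell by 4.37 (SE 0.75, limma adjusted p = 0.00166). Against WT replicate 4 the difference was -3.20, and after the GC correction the change was -3.05 (SE 0.63, limma adjusted p = 0.00938). With so few reads the size depends on the 0.5 reads that were added before the log: with 2 reads added it was -3.37 (limma adjusted p = 0.000893).

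*Tap1*, the partner subunit, was 2.16, 1.97, 3.27 and 0.77 in WT (2.04 ± 1.02, SD, n = 4) and 0.27, 0.75 and 0.98 in C2-/- (0.67 ± 0.36, SD, n = 3), from 7 to 148 reads in WT and 3 to 9 in C2-/-. WT replicate 4 lay within the C2-/- range, below the other WT libraries. The change was -1.38 (SE 0.62, limma adjusted p = 0.0895). It was -1.80 and past the threshold without WT replicate 4 (limma adjusted p = 0.021), and -0.02 (limma adjusted p = 0.984) after the GC correction.

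*Psmb8*, the immunoproteasome subunit beta5i, was 2.75, 2.33, 2.83 and 1.72 in WT (2.41 ± 0.51, SD, n = 4) and 0.92, -2.42 and 0.63 in C2-/- (-0.29 ± 1.85, SD, n = 3). It had 14 to 109 reads in WT and 5, 0 and 7 in C2-/-, all C2-/- values being below all WT values. *Psmb8* fell by 2.70 (SE 0.80, limma adjusted p = 0.0199), and the C2-/- mean was -2.01 from WT replicate 4. The call was lost without WT replicate 1 (limma adjusted p = 0.0551) or WT replicate 3 (0.0565), and without C2-/- replicate 2 the change was -1.63. After the GC correction it was -1.55 (SE 0.71, limma adjusted p = 0.145). Transcripts annotated as other genes overlap this stretch: 11.9% of the 50-base stretches of *Psmb8* and 11.6% of those of *Tap2* occur in another gene, mostly Gm20496 and Gm15821.

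Of the 3 class II genes, *H2-Ab1* was past the threshold in the main test before and after the GC correction, and the call of *Cd74* depended on the model. *H2-Ab1*, the beta chain, was 2.41, 2.28, 2.79 and 1.26 in WT (2.18 ± 0.66, SD, n = 4) and 4.09, 2.87 and 4.02 in C2-/- (3.66 ± 0.69, SD, n = 3), from 81, 72, 106 and 10 reads in WT and 49, 19 and 78 in C2-/-. Every C2-/- library was above every WT library, although C2-/- replicate 2 was only just above WT replicate 3. The rise was 1.48 (SE 0.47, limma adjusted p = 0.0277), or 2.78-fold. WT replicate 4 was the lowest library, so that against it alone the C2-/- mean was higher by 2.40. When 1 library was left out, the call held in 3 of 7 fits. It was lost without WT replicate 1 (1.55, limma adjusted p = 0.0506), WT replicate 2 (1.51, 0.058), C2-/- replicate 1 (1.26, 0.0894) or C2-/- replicate 3 (1.30, 0.0869).

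After the GC correction, *H2-Ab1* was 1.75, 1.61, 2.04 and 1.0 in WT and 4.54, 3.98 and 4.81 in C2-/-. The corrected rise was 2.84 (SE 0.38, limma adjusted p = 0.00202), or 7.18-fold, the largest corrected rise of the 9 genes. None of its 50-base stretches occurs in another gene. The strain limit given for the heavy chains applies to *H2-Ab1* and *H2-Aa* as well, and their alignment was not tested.

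*Cd74*, the invariant chain gene on chromosome 18 (60803848 to 60812652, plus strand, GRCm38), was 4.43, 4.29, 4.63 and 3.20 in WT (4.14 ± 0.64, SD, n = 4) and 3.61, 3.01 and 2.75 in C2-/- (3.12 ± 0.44, SD, n = 3). WT replicate 4 lay among the C2-/- libraries, and the other WT libraries were above them. The change was -1.02 (SE 0.39, limma adjusted p = 0.0543). It was -1.33 and past the threshold without WT replicate 4 (limma adjusted p = 0.00562), -0.08 against WT replicate 4 alone, and 0.25 (limma adjusted p = 0.603) after the GC correction. With all 7 libraries it was also past the threshold with voom (-1.22, limma adjusted p = 0.0381), with library quality weights (-1.22, 0.00955), among genes with a log2 mean of 3 or more (-1.02, 0.045) and with the replicate number as a block (-1.33, 0.0105). With that block *H2-Ab1* was not (1.17, limma adjusted p = 0.0556).

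*H2-Aa*, the alpha chain that pairs with the product of *H2-Ab1*, was 3.17, 3.12, 3.46 and 3.17 in WT (3.23 ± 0.15, SD, n = 4) and 4.20, 2.71 and 2.99 in C2-/- (3.30 ± 0.79, SD, n = 3). C2-/- replicate 1 was above the WT range and the other C2-/- libraries below it. The change was 0.07 (SE 0.39, limma adjusted p = 0.889), with a 95% interval of -0.79 to 0.94, and 0.41 (limma adjusted p = 0.438) after the GC correction.

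Within a library, the difference between partner genes does not depend on the scaling of that library. The pairs were chosen after the values were seen and are given without a test. *H2-Ab1* minus *Cd74* was -2.02, -2.02, -1.84 and -1.95 in the WT libraries, a spread of 0.09 (SD) that includes WT replicate 4, and 0.48, -0.14 and 1.27 in C2-/-. The transcripts have nearly the same GC content (57.3% and 56.6%), and the difference between the group means was 2.49 before and 2.60 after the correction. *H2-Ab1* minus *H2-Aa* was -0.77, -0.85, -0.66 and -1.91 in WT and -0.11, 0.16 and 1.03 in C2-/-, and the groups did not overlap after the correction either.

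*Tap2* minus *Tap1* was 1.64, 1.56, 0.92 and 1.52 in WT and 0.36, -3.17 and -1.93 in C2-/-. These genes are also alike in GC content (56.9% and 57.3%), and the groups were separate with both sets of values, although the C2-/- values rest on 9 reads or fewer in each gene. *B2m* minus *H2-K1* was 1.29, 1.55, 1.23 and 2.54 in WT and 4.44, 4.30 and 3.78 in C2-/-. After the correction it was 2.36, 2.61, 2.45 and 2.94 against 3.58, 2.71 and 2.48, and the groups overlapped. *B2m* minus *H2-D1* was likewise separate before (0.18 to 2.12 against 2.88 to 4.43) and overlapping after it.

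**Figure D4:**
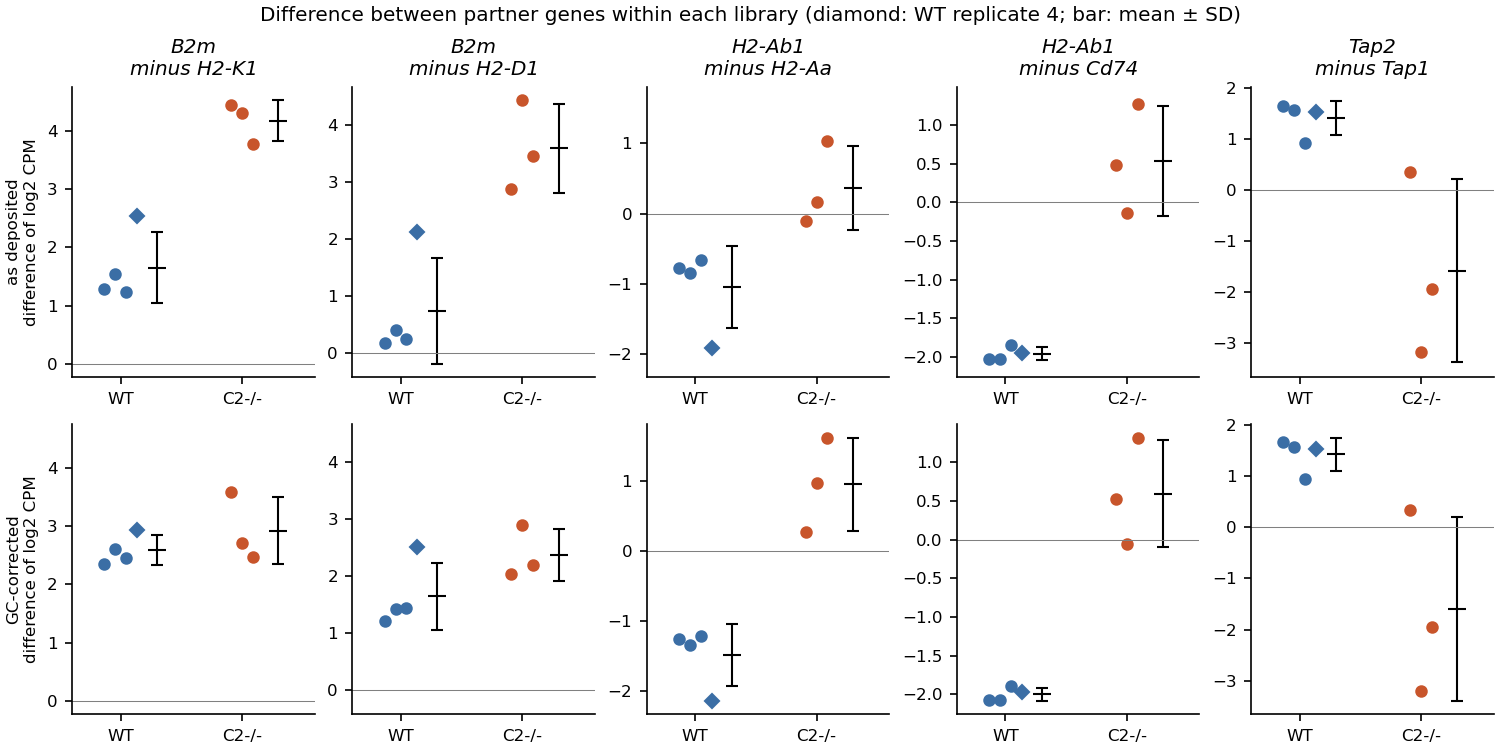
Difference of log2 CPM between partner genes within each library, for the deposited values (top) and after the GC correction (bottom), with blue WT points (diamond: WT replicate 4), red C2-/- points and the mean ± SD. *H2-Ab1* minus *Cd74* stayed between -2.02 and -1.84 in WT and between -0.14 and 1.27 in C2-/-, whereas *B2m* minus *H2-K1* separated the groups only before the correction.

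Levels were compared between genes as CPM per kilobase of transcript, without the GC correction. In WT, *B2m* led with 160 ± 94.6 (SD, n = 4), followed by *H2-D1* (35.8 ± 5.90), *H2-K1* (24.6 ± 3.76), *Cd74* (13.3 ± 4.80) and *H2-Aa* (8.31 ± 0.93). *H2-Ab1* (3.97 ± 1.58), *Tap2* (3.52 ± 1.64) and *Psmb8* (3.38 ± 1.10) lay within the spread of each other, and *Tap1* was lowest (1.65 ± 1.15). The spread of *Tap1* overlapped that of each of these 3, and the spread of *Cd74* that of *H2-Aa*.

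In C2-/-, *B2m* stood at 975 ± 171 (SD, n = 3), *H2-D1* at 35.7 ± 18.7 and *H2-K1* at 28.4 ± 3.07, and the last 2 overlapped in spread. The gap between *B2m* and the heavy chains depends on the GC correction. In log2 CPM, the mean of *B2m* minus *H2-D1* in C2-/- was 3.59 before it and 2.38 after it. In WT this mean was 0.74 and 1.65. *H2-Ab1* (11.0 ± 4.48), *H2-Aa* (9.59 ± 5.73) and *Cd74* (6.27 ± 2.01) overlapped in spread. The lowest were *Psmb8* (0.649 ± 0.568), *Tap1* (0.496 ± 0.141) and *Tap2* (0.173 ± 0.205), which overlapped in spread.

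Of the other genes that supply and load class I peptides, 3 of 11 fell, near the 25.0% of all genes, 0 rose, where 20.2% of all genes did, and 8 were not past the threshold, with a median change of -0.54. *Psme2*, a subunit of the proteasome activator PA28, fell by 1.85 (SE 0.41, limma adjusted p = 0.00545). The C2-/- values of 1.28 to 2.41 lay below WT replicate 4 (3.09) and the other WT libraries (4.02 to 4.13), and it fell by 1.20 after the GC correction (limma adjusted p = 0.04). *Psmb10*, the immunoproteasome subunit beta2i, fell by 1.33 (limma adjusted p = 0.0125) before the correction and stood at -0.07 after it. *Tapbp* encodes tapasin, which holds class I at the transporter. It fell by 2.25 (limma adjusted p = 0.0248), but with 1 library left out at a time the call held in 2 of 7 fits, and without C2-/- replicate 2 the change was -1.28 (limma adjusted p = 0.0581). It had C2-/- values of 2.82, 0.75 and 4.49 that overlapped WT replicate 4 (4.23), and its corrected change of -0.90 was not past the threshold. After the correction 1 gene of the list rose and 2 fell, against 12.3% and 8.33% of all genes, with a median of -0.36. The rise was in *Psme1*, another PA28 subunit, at 0.11 (limma adjusted p = 0.629) before the correction and 1.11 (0.00673) after it. The falls were in *Psme2* and in *Canx*, at 0.09 (limma adjusted p = 0.709) before it and -0.76 (0.028) after it. *Psme1* and *Canx* were named after their values were seen.

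The constitutive proteasome subunits that *Psmb8* and its relatives replace fell too, 3 of 3, against 25.0% of all genes, and 1 of 3 after the GC correction, against 8.33%. *Psmb5*, the counterpart of *Psmb8*, fell by 1.91 (limma adjusted p = 0.000915), *Psmb6* by 0.64 (0.0244) and *Psmb7* by 0.78 (0.00304). After the GC correction *Psmb7* fell by 0.82 (limma adjusted p = 0.00524), while *Psmb5* (-0.64, 0.16) and *Psmb6* (0.50) were not past the threshold. With length corrected as well, *Psmb5* fell by 0.91 (limma adjusted p = 0.0467).

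Beta-2-microglobulin also pairs with class I-like chains, and these changed in both directions. Of 26 listed class I and class I-like genes outside the group 8 were in the table, of which 2 rose and 4 fell, against 20.2% and 25.0% of all genes, with a median of -0.83. *Mr1*, which presents vitamin B metabolites to MAIT cells, was 4.87 to 5.45 in WT and 6.38 to 6.56 in C2-/-. It rose by 1.32 (SE 0.20, limma adjusted p = 0.000918) and, after the GC correction, by 0.72 (limma adjusted p = 0.0177). *Hfe*, a regulator of iron uptake, rose by 0.95 (limma adjusted p = 0.0176), and its corrected change was 0.77 (limma adjusted p = 0.0615). It was 0.84 and past the threshold with length corrected as well (limma adjusted p = 0.045), and with the GC correction without WT replicate 4 (0.0335), but not with the GC correction and the replicate block (0.84, 0.111).

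*Fcgrt*, the heavy chain of the neonatal Fc receptor that recycles IgG and albumin, stood at 2.88 to 3.44 in C2-/-, below WT replicate 4 (4.92) and below the other WT libraries (5.70 to 5.83). It fell by 2.39 (SE 0.28, limma adjusted p = 0.000368) and by 1.23 after the correction (limma adjusted p = 0.00638). A pair of nonclassical *H2-T* genes fell before the correction only: *H2-T23* by 2.68 (limma adjusted p = 0.0364) and *H2-T10* by 1.14 (0.0337), with corrected changes of -1.84 and -0.37. *H2-T23* rested on 3, 0 and 25 reads in C2-/-. With 1 library left out at a time its call held in 1 of 7 fits, and its change was -1.43 without C2-/- replicate 2. The call of *H2-T10* held in 3 of 7, and its change was -0.64 without C2-/- replicate 3. Of the *H2-T10* stretches 50.4% occur in other genes, so its reads are uncertain. After the correction 1 gene of the list rose and 1 fell, against 12.3% and 8.33% of all genes.

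Among 8 analysed genes of class II loading and transcription, 2 rose and 2 fell, near the 20.2% and 25.0% of all genes, with a median of 0.43. *Rfx5* encodes a subunit of the RFX complex on class II promoters and rose by 1.09 (limma adjusted p = 0.0395), although WT replicate 4 (4.89) overlapped the C2-/- libraries (4.55 to 5.75). *Rfxank*, another subunit of that complex, fell by 1.56 (limma adjusted p = 0.00864). *Ctsl*, a lysosomal protease, rose by 0.62 (limma adjusted p = 0.0425), and *H2-DMa*, of the peptide exchange factor H2-M, fell (limma adjusted p = 0.0307) from 1.03 to 1.66 in WT to 0.27, -2.42 and -0.47 in C2-/-, where it had 3, 0 and 3 reads. After the correction the change of *Rfx5* was 1.19 (limma adjusted p = 0.0517), 1.26 (0.0436) with length corrected as well, and 1.5 (0.00842) with the GC correction without WT replicate 4. *Rfxank* (-0.54), *Ctsl* (0.01) and *H2-DMa* were not past the threshold. *Ifi30*, named after its values were seen, was the 1 gene of the list past it (1.55, limma adjusted p = 0.0354), against 12.3% of all genes. When 1 library was left out, the call of *Rfxank* held in 7 of 7 fits, that of *H2-DMa* in 4, that of *Rfx5* in 2 and that of *Ctsl* in 1. With all libraries, the call of *Ctsl* was also lost with the replicate block (0.42, limma adjusted p = 0.0652) and with quality weights (0.40, 0.107). It was lost with quantile normalization (0.46, limma adjusted p = 0.138) and with limma without its trend (0.62, 0.0903) too. *Ciita*, the master regulator of class II, was not a row of the table.

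Genes of interferon signalling and response were examined because interferons raise both classes. Of 36 analysed, 3 rose, 7 fell and 26 were not past the threshold, against 20.2% and 25.0% of all genes, with a median change of 0.01. With GC-corrected values 2 rose and 3 fell, against 12.3% and 8.33%, with a median of -0.43. The falls were *Usp18*, given below, and *Irf1* and *Ifngr2*, which were named after their values were seen. *Irf1* fell by 2.33 (limma adjusted p = 0.0029) and by 1.67 after the correction (0.0303). *Ifngr2* fell by 0.80 (limma adjusted p = 0.0103) and by 0.66 after it (0.0401). In the deposited values of both, every C2-/- library was below every WT library. No leave-out tally is given for them. *Irf2*, a factor that binds the response element, rose by 1.0 (limma adjusted p = 0.00254; 0.70 after the correction, 0.0202). *Ifnar2*, a type I interferon receptor chain, rose by 1.29 (limma adjusted p = 0.0242) and by 1.53 after the correction (0.0204). Of the 15 alternatives besides the 7 leave-out fits, 13 kept the call of *Ifnar2*. The GTPase gene *Gbp7* rose by 1.33 (limma adjusted p = 0.0125), and its corrected change of 0.42 was not past the threshold. Of the same 15 alternatives, 9 kept the call of *Gbp7*.

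*Usp18*, an interferon-induced protease gene that damps the response, had 19 to 32 reads in WT and 0 in all C2-/- libraries. Its level was at least 2.21-fold lower in C2-/-, against the highest 3-read floor of that group (1.12 CPM), and the fall was past the threshold with both sets of values (limma adjusted p = 0.00203 and 0.00697). *Ifi35* fell by 3.33 (limma adjusted p = 0.0133), by 2.05 without C2-/- replicate 2, and stood at -2.45 (limma adjusted p = 0.0585) after the GC correction and at -2.60 (0.0475) with length corrected as well. *Irf9* fell by 2.70 (limma adjusted p = 0.0355), by 1.34 without C2-/- replicate 2, and stood at -2.20 (limma adjusted p = 0.107) after the correction. Leaving out 1 library at a time, the *Irf9* call held in 3 of 7 fits. Over all 5 lists, 66 of 98 genes were in the table, of which 7 rose and 19 fell, against 20.2% and 25.0% of all genes, and 5 and 7 after the GC correction, against 12.3% and 8.33%. Of the remaining named genes, the call held with 1 library left out at a time in 2 of 7 fits for *Psmb6*, 4 for *Psmb10*, 4 for *Hfe* and 5 for *Ifnar2* (in 1 of these, without WT replicate 2, the adjusted p rounds to 0.05), and in 7 for *Psme2*, *Psmb5*, *Psmb7*, *Mr1*, *Fcgrt*, *Gbp7*, *Irf2*, *Usp18* and *Ifi35*.

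**Figure D5:**
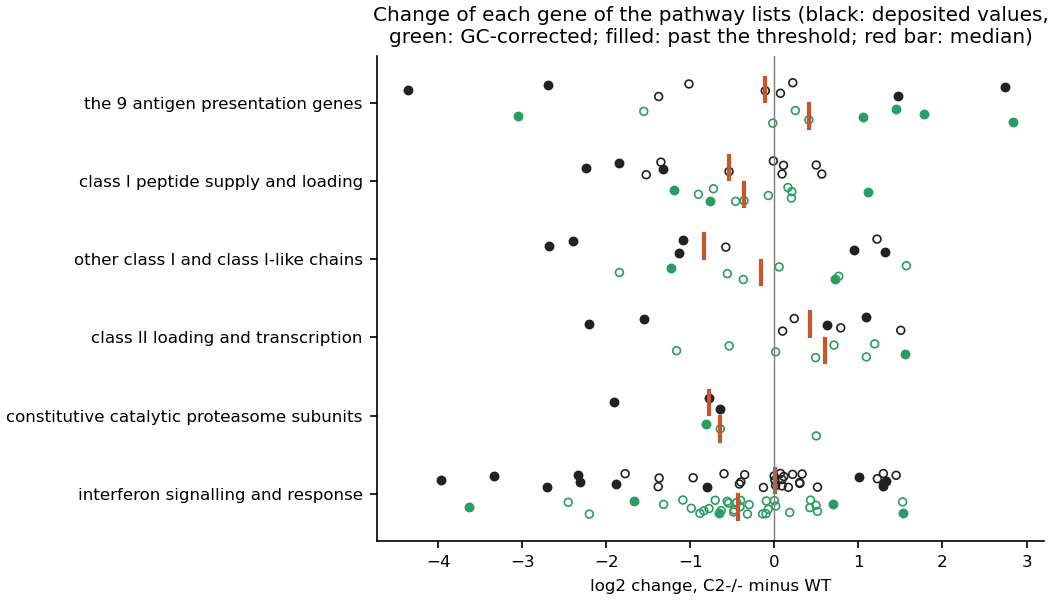
Change in log2 units, C2-/- minus WT, of each analysed gene of the group and of the 5 other lists, for the deposited values (black) and after the GC correction (green), with vertical positions spread for legibility. Filled points were past the threshold and red bars are medians, from -0.83 (class I-like chains) to 0.43 (class II loading) before the correction and from -0.64 to 0.60 after it.

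Markers of the cells that carry these molecules were measured in the same libraries, where the shares of all genes were again 20.2% higher and 25.0% lower, and 12.3% and 8.33% after the GC correction. Of 16 macrophage markers 14 were in the table, with a summed level of 66.7 to 97.8 CPM in WT and 82.2 to 124 CPM in C2-/-. *Mrc1*, *Itgam* and *Cd163* rose and *C1qa* and *C1qc* fell (median of the list 0.12). With GC-corrected values *Itgam* and *Cd163* rose and 0 fell (median 0.83). The genes *C1qa*, *C1qc* and *Cd14* were at 0 reads in 1 or more C2-/- libraries. Of 9 dendritic cell markers 4 were in the table (3.41 to 9.70 CPM in WT, 4.76 to 11.6 CPM in C2-/-, 0 past the threshold), with *Zbtb46* at 0 reads in C2-/- replicate 3 and *Cd209a* at 0 reads in WT replicate 4. The 3 leukocyte genes summed to 3.65 to 7.74 CPM in WT and 7.11 to 15.1 CPM in C2-/-, and *Cd53* rose before the correction but not after it. *Coro1a*, another of the 3, had 29, 28, 29 and 1 reads in WT and 0, 0 and 7 in C2-/- (change -1.76, not past the threshold). None of the 6 B cell, 7 T and NK cell and 4 neutrophil markers was a row of the table.

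The 8 endothelial markers summed to 353 to 541 CPM in WT and 295 to 390 CPM in C2-/-, of which 1 rose and 3 fell (median -0.48), and 0 and 0 after the GC correction (median 0.09). The 8 markers of muscle fibres, which check the labelled tissue, summed to 149555 to 182224 CPM in WT and 75596 to 98149 CPM in C2-/-. Of these 0 rose and 5 fell (median -1.19), and 1 rose and 2 fell after the correction (median -0.22). WT replicate 4 had the lowest WT sum of the macrophage, dendritic, endothelial and fibre lists and the highest of the leukocyte genes. The part of these cells in the changes of *B2m*, *H2-Ab1*, *Tap2* and *Psmb8* was not tested.

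The neighbours of the MHC genes were counted because 7 of the 9 share 1 stretch of chromosome 17. From the start of *H2-K1* to the end of *H2-D1* (1.27 Mb), 47 other genes were in the table, of which 1 rose and 24 fell, against 20.2% and 25.0% of all genes, with a median change of -1.52. Their median GC content was 57.8%, against 50.2% over all genes. After the GC correction 5 rose and 4 fell, near the 12.3% and 8.33% of all genes, with a median of -0.06.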

How the data were processed

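RNA from TA muscle of 4 WT and 3 C2-/- mice was enriched for mRNA on oligo(dT) beads and sequenced as DNA nanoballs. Per the labels and the study's methods, the authors aligned reads with HISAT to GRCm38.p6, counted them with featureCounts 1.5.2, scaled libraries by edgeR's TMM and deposited log2 values per gene for 12239 genes. A second file holds the authors' own comparison and was not used. Read length, strand and multi-mapped reads are not given in the sources used here. The design text gives 4 animals per group and the labels 4 and 3. The study also gives 3 C2-/- and 4 WT mice, taken here as 1 mouse per library. For this series it gives the age of the labels, which is used here, and elsewhere for young TA muscle it gives ranges that begin lower.

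Each log2 value equals that of a whole read number plus 0.5 per effective library size (100% whole within 0.001 reads), which gave the reads per gene. A gene with 3 reads stands at 0.195 to 1.12 CPM, which covers counting error only, since PCR copies are not independent molecules. Any 2 libraries differed by at least 9.12 chi-square per degree of freedom.

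The main test was limma 3.58.1 with a mean-variance trend on the log2 values (R 4.3.3; genotype only, two-sided, Benjamini-Hochberg over 12239 genes). The size of a change to or from few reads depends on the offset of 0.5 and can be too small or too large. The GC correction removed from each library its natural spline (5 df) on transcript GC content (12176 genes, 99.5%, matched to the GRCm38 annotation, 358 by an older symbol). On simulated counts for 12239 genes this test called 49 of 50 genes lowered by 2 on the log2 scale and 50 of 50 raised by 2. It called 29 of 50 lowered by 1, 43 of 50 raised by 1 and 13 of 12039 unchanged genes. The simulated counts had the same dispersion for every gene, no GC trend and no shift of WT replicate 4. The changed genes were drawn from those with a log2 mean of 1 or more. These counts therefore give no rate of false calls in the real libraries. Outside the 9 genes, the rule named the 3 strongest rises and 3 strongest falls of each list. These had to be past the threshold with a log2 mean of 1 or more in the higher group. Every gene of a list of 3 was also named, and *Mybpc2*. Named outside this rule, after their values were seen, were *Ifi30*, *Irf1*, *Ifngr2*, *Psme1* and *Canx*. The immune cell markers named were past the threshold or at 0 reads in a library. The genes, lists and markers were chosen with earlier results of these data known. Alternatives covered the model, scaling, offset, low-value filter, GC content and length, threshold, replicate block and leaving out each library.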

Additional observations from a re-analysis of the deposited data

Results flagged for a closer look

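Among the 4 WT libraries, values were set apart by Dixon's test at 95%, in which the gap of the highest or lowest value to its neighbour is divided by the whole range. Of 31 genes examined 10 were set apart, where chance gives about 1.6, and in 9 of them the library was WT replicate 4, the shallow WT library. *B2m* was 8.02 in WT replicate 4 against 6.50 to 6.72 in the others, toward C2-/-, and the change of *B2m* was 3.10 without that library. Toward C2-/- lay also its *Tapbp* (4.23 against 5.10 to 5.28), *Psme2* (3.09 against 4.02 to 4.13), *Psmb10* (2.84 against 3.44 to 3.48), *Fcgrt* (4.92 against 5.70 to 5.83), *H2-T10* (4.36 against 5.04 to 5.07) and *Irf2* (4.97 against 4.65 to 4.70). Away from C2-/- lay its *Ctsl* (5.37 against 6.08 to 6.23) and *Ifnar2* (1.82 against 2.76 to 2.91). In *H2-Aa* it was WT replicate 3 (3.46 against 3.12 to 3.17). The cause was not tested.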

How the results depend on the processing

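Of 194 alternative values of the 9 genes, 155 kept direction and side of the threshold. *B2m* (1.47 to 3.10) and *Tap2* (-5.14 to -2.95) did so in every setting that kept them. Among genes whose log2 mean was 3 or more (5 genes tested), the count past the threshold was 2 instead of 4. These were *B2m* and *Cd74* (-1.02, limma adjusted p = 0.045), since *H2-Ab1*, *Tap2* and *Psmb8* were filtered out. The count was also 2 at an adjusted p under 0.01. When a library was left out it was 2 to 6 (2 without WT replicate 1, 6 without WT replicate 4). The 26 other pathway genes were 16 with that filter, 12 with the GC correction, 14 with GC and length, 9 at an adjusted p under 0.01, 13 with the GC correction without WT replicate 4, and 14 to 28 when a library was left out. Over the whole table the 5528 genes were 2508 with the GC correction, 2513 with GC and length, 3216 at an adjusted p under 0.01, 3129 with the GC correction without WT replicate 4, and 4095 to 6136 when a library was left out. Median centring called 3040 higher and 2594 lower, and quantile normalization 2883 and 2760, against 2473 and 3055.

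*H2-D1* reversed with quality weights (0.01), median centring (0.05), the GC correction (1.05), GC and length (1.06), the GC correction without WT replicate 4 (1.04) and without C2-/- replicate 2 (0.21; -0.50 to 0.21 over the libraries left out). *Cd74* reversed with the GC correction (0.25), with GC and length (0.12) and with the GC correction without WT replicate 4 (0.04), *Tap1* with GC and length (0.08), and *H2-Aa* without C2-/- replicate 1 (-0.38; -0.38 to 0.37 over the libraries left out). *Psmb6* reversed with the same GC settings (0.50, 0.20 and 0.53) and *Ctsl* with the last (-0.23). The cause was not tested. Depth limits *Tap1*, *Tap2* and *Psmb8*, at 9 reads or fewer in every C2-/- library.

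Replicate numbers did not pair the libraries (correlation of same-numbered deviations 0.05, -0.06 and -0.05). With the replicate block, which gives WT replicate 4 its own level, 5901 genes, 5 of the 9 and 30 pathway genes were past the threshold, and with the block and the GC correction 2915, 5 and 14. In that last fit *H2-D1* (1.04), *Cd74* (0.04), *Ctsl* (-0.23) and *Psmb6* (0.53) reversed. With the block alone, *H2-Ab1* was 1.17 (limma adjusted p = 0.0556), and *Tap1* (-1.80) and *Cd74* (-1.33) were past the threshold.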
